A study of Homo sapiens with 2 samples.

Results

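The zinc finger genes of chromosome 19 were examined for occupancy by PHF8. The genes were chosen by symbol and position: every protein-coding RefSeq gene placed on chromosome 19 of GRCh38 whose symbol starts with ZNF and digits. This gave 250 of 20056 placed coding genes, and the 1201 other coding genes of the chromosome served as background. Of these members, 4 had hyphenated symbols (ZNF559-ZNF177, ZNF816-ZNF321P, ZNF765-ZNF761 and ZNF470-DT). PHF8 had been immunoprecipitated from RKO, an established human colon carcinoma line, and the bound DNA had been sequenced (ChIP-seq). One group was RKO cells transfected with a vector and the other was RKO cells transfected with a plasmid for APOC2, which encodes an activator of lipoprotein lipase. Each group had 1 library and 1 peak table, so no difference between the groups could be set against a spread between replicates. Whether the transfection was transient and how high the APOC2 level was are not given in the sources used here. No expression was measured, so the identity of the line was not checked.

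Most zinc finger genes of this chromosome stand in tandem arrays that arose by duplication. Many of their proteins carry a KRAB domain, which recruits the corepressor TRIM28 and with it the histone methyltransferase SETDB1 and HP1 proteins, and are known for silencing transposable elements. PHF8 is a histone demethylase that removes repressive methyl marks, and its PHD finger binds the methylated lysine that marks active promoters. A gene was called occupied when the midpoint of a peak lay within 1 kb of its annotated start or end. Where several peaks did, the one with the highest fold enrichment over the local background was used. The vector table had 252 peaks on chromosome 19 and the APOC2 table had 551.

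The sequences around the starts of 6 members are shown because the shares of occupied genes by CpG number, given after the clusters, concern these bases. By peaks at annotated starts or ends, ZNF460 had the highest fold enrichment in the APOC2 library and ZNF222 the highest in the vector library. ZNF709 had the highest among members occupied in the APOC2 library alone, and ZNF100 was occupied in the vector library alone. ZNF556 had 8 CpG dinucleotides, the fewest, with ZNF737, of the members occupied at this start. ZNF541 had 49, the most of any member, and no peak. The ZNF460 peaks lay outside the bases shown, at chr19:57280444-57280855 with APOC2 and chr19:57280453-57280739 with vector. Their midpoints were 667.5 and 614 bp downstream of the start, and both peaks also lay at a boundary of ZNF460-AS1. Each run holds 250 bases before and 50 after a listed start, read 5′ to 3′ along the gene, from RefSeq on GRCh38.p14, with CpG dinucleotides in capitals.
ZNF460, chr19:57279732-57280031, plus strand: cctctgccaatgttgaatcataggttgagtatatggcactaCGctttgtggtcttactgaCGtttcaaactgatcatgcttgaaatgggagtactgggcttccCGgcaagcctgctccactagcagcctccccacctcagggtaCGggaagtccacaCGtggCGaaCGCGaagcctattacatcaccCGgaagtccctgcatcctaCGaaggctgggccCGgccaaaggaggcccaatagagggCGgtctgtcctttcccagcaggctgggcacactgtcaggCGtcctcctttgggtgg
ZNF222, chr19:44025129-44025428, plus strand: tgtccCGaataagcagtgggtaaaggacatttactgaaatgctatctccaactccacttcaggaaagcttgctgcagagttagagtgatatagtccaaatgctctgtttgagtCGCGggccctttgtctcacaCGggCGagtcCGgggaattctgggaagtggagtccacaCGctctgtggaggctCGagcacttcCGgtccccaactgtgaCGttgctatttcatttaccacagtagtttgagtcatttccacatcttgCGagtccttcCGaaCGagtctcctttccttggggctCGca
ZNF709, chr19:12484767-12485066, minus strand: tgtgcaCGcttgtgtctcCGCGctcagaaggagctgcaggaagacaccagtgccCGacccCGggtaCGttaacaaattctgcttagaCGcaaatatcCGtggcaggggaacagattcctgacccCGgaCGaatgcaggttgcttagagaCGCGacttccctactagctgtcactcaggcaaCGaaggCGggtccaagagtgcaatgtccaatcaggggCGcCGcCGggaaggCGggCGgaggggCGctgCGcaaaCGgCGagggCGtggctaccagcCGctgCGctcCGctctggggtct
ZNF100, chr19:21767530-21767829, minus strand: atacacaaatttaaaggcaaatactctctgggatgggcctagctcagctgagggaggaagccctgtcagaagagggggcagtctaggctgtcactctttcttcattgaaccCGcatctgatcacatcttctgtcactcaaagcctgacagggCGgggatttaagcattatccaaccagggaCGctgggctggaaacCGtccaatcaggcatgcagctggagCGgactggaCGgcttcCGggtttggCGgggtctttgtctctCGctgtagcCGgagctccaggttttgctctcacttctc
ZNF556, chr19:2867085-2867384, plus strand: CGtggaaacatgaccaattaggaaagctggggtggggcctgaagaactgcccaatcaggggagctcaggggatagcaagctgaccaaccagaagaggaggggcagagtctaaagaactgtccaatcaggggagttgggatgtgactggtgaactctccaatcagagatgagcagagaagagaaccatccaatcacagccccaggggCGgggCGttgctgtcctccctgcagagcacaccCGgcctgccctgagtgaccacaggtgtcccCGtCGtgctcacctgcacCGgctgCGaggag
ZNF541, chr19:47573099-47573398, minus strand: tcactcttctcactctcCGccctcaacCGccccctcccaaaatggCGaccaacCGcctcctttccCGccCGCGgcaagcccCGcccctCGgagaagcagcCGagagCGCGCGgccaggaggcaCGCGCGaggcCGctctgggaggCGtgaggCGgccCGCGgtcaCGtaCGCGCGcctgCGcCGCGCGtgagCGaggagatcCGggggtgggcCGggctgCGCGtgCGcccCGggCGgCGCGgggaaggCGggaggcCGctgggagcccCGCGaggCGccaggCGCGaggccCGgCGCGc

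In the vector library 11 of the 250 members were occupied (4.4%, 95% Wilson interval 2.47 to 7.71%), against 26 of the 1201 other coding genes of the chromosome (2.16%, 1.48 to 3.15%). In the APOC2 library 62 members were occupied (24.8%, 19.9 to 30.5%), against 197 of the other genes (16.4%, 14.4 to 18.6%). Both groups of genes thus had more occupied genes in the APOC2 table, and in both tables the share was higher among the zinc finger genes, with intervals that overlapped in the vector table and did not in the APOC2 table. Of all 20056 coding genes, 5.94% were occupied with vector and 23.8% with APOC2, so the share of the zinc finger genes lay near that of coding genes at large in the APOC2 library. The intervals count genes only, and genes that share a peak are not independent.

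Of the members, 52 were occupied in the APOC2 library alone (20.8%, 16.2 to 26.3%), beside 14.2% of the other genes of the chromosome and 18.0% of all coding genes. A further 10 were occupied in both libraries (4%, beside 2.16% and 5.84%). ZNF100 alone was occupied only in the vector library. This was 1 of 250 members, beside 0 of 1201 other genes of the chromosome, a count that allows a share of up to 0.250%, and 0.105% of all coding genes. With the same number of top-ranked peaks taken from each table, 25 members and 99 other genes were occupied in the APOC2 library. These were 10.0% and 8.24%, given without intervals, so that the distance from the background was smaller there than with the full tables. The 267 ZNF genes of other chromosomes had shares of 10.9% (7.67 to 15.2%) with vector and 34.8% (29.4 to 40.7%) with APOC2, whose intervals overlapped slightly with those of the members.

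**Figure D1:**
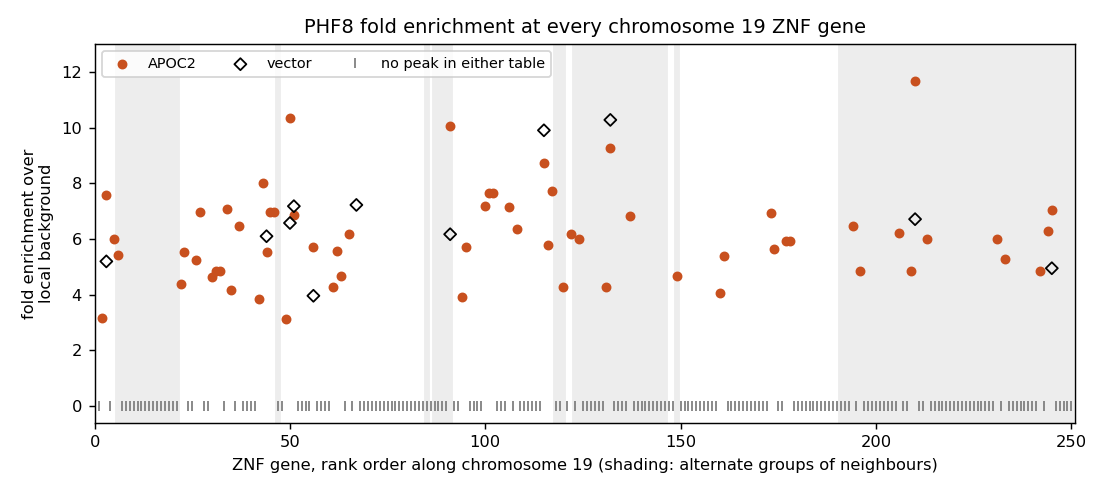
Fold enrichment (y axis) at each of the 250 members in rank order along chromosome 19 (x axis), for the vector (open diamonds) and APOC2 (filled circles) libraries; ticks at the base are members with no peak in either table, and shading marks alternate groups of neighbours. The 62 APOC2 points lie between 3.13 and 11.7, the 11 vector points between 3.96 and 10.3, and long runs of members carry no point.

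The 10 members occupied in both libraries fell into 6 with a higher and 4 with a lower fold enrichment in the APOC2 library. A higher value was seen at 23 of 26 other genes of the chromosome occupied in both (88.5%), at 26 of 28 ZNF genes of other chromosomes (92.9%) and at 1047 of 1171 coding genes in all (89.4%). The share of the members was thus below these, on 10 genes and with no test. It leaves out 4 members, described below, with peaks in both libraries at other listed starts, where the APOC2 value was the higher. At the 10 members the median log2 ratio, APOC2 over vector, was 0.52 (range -0.18 to 0.80). It was 0.42 at these other genes of the chromosome, 0.61 at ZNF genes of other chromosomes and 0.52 at all such coding genes. A ratio of at least 1.5-fold was seen at 3 of the 10 members, beside 23.1% of the other genes of the chromosome, 53.6% of ZNF genes of other chromosomes and 43.5% of all such coding genes. Fold enrichment was 6.71 with vector and 11.7 with APOC2 at ZNF460, where the pileup (fragments over the summit, as scaled by the caller) was 23.8 and 34. It was 6.17 and 10.1 at ZNF792, 6.57 and 10.3 at ZNF506, 5.20 and 7.59 at ZNF556. At ZNF737 it was 3.96 and 5.72, and at ZNF837 it was 4.95 and 7.05. These 6 genes stood on both arms and in 4 clusters.

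At the remaining 4 members the vector value was the higher one. ZNF222 had fold enrichments of 10.3 with vector and 9.28 with APOC2, and pileups of 20.8 and 16. ZNF571 had 9.90 and 8.73, ZNF564 had 6.10 and 5.54, and ZNF253 had 7.18 and 6.86. Scaled to the depths implied by the tables, the pileup ratios of these 4 lay between -0.11 and -0.0050 on the log2 scale, so the differences were small by that measure. Without the 1 that the peak caller adds to both terms, the ratio at ZNF222 changed sign, to a log2 value of 0.051. By vector fold enrichment, ZNF222 and ZNF571 were the highest members. ZNF100 had a vector fold enrichment of 7.22, a pileup of 20.8 and a -log10 q of 10.3, at chr19:21767326-21767549. The APOC2 peak nearest to it lay 325495 bp from its boundary, at ZNF493.

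**Figure D2:**
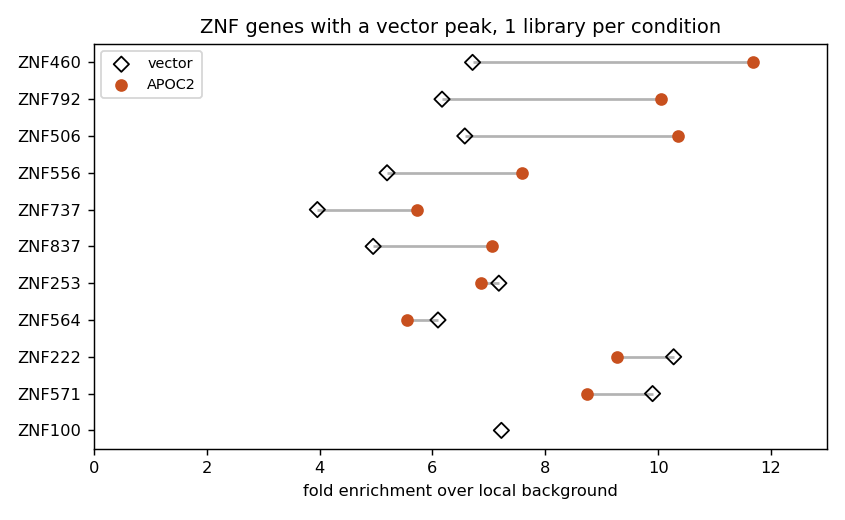
Fold enrichment (x axis) at the 11 members with a vector peak (y axis), with 1 library per condition and no error; lines join the vector (open diamond) and APOC2 (filled circle) values. The upper 6 members have the higher value in the APOC2 library, the next 4 in the vector library, and ZNF100 has no APOC2 peak.

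The members occupied in the APOC2 library alone had lower values there (median fold enrichment 5.74, range 3.13 to 8.01) than the members also occupied in the vector library (median 8.16, range 5.54 to 11.7). At other genes of the chromosome these medians were 5.65 and 6.85, and at all coding genes 5.00 and 7.24. The classes were split by a call in the vector library, so the order is no separate result about the members. The highest values of the first class were 8.01 at ZNF709 and 7.72 at ZNF573. A single peak with 7.66 lay at both ZNF790 and ZNF345, whose first parts overlap and which run in opposite directions. ZNF850 had 7.19, ZNF585A 7.13 and ZNF844 7.06. Another shared peak, with 6.99, lay just inside ZNF791 and within the window of ZNF490. The starts of these genes are 107 bp apart and point away from each other. ZNF440 had 6.97. Of the 6 pairs of members that start head to head within 1 kb, these 2 were occupied and 4 were not (ZNF529 with ZNF382, ZNF461 with ZNF567, ZNF829 with ZNF568 and ZNF470-DT with ZNF470). In all, 59 distinct peaks lay behind the 62 occupied members, and 16 members had a peak that also lay at a boundary of a gene outside the set. ZNF473, which encodes a protein of the machinery that processes histone messages, was such a case: its peak (fold enrichment 4.69) lay at a boundary of VRK3 as well.

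Occupancy was uneven along the chromosome. Members were joined into a cluster where the gap between neighbours was at most 1 Mb, which gave 9 clusters of 5 or more members that held 239 genes, while 11 genes stood in smaller groups. In the cluster from ZNF653 to ZNF791 (chr19:11483429-12633834), 15 of 25 members were occupied in the APOC2 library (60.0%, 40.7 to 76.6%), from 14 peaks, and 1 was in the vector library. These 15 were ZNF653, ZNF627, ZNF491, ZNF440, ZNF700, ZNF763, ZNF433, ZNF844, ZNF20, ZNF136, ZNF443, ZNF709, ZNF564, ZNF490 and ZNF791, with fold enrichments from 3.84 to 8.01. In the cluster from ZNF565 to ZNF573 (chr19:36182060-37779586), 10 of 26 were occupied (38.5%, 22.4 to 57.5%), from 9 peaks. The highest value there, 8.73, was at ZNF571. The small cluster from ZNF554 to ZNF77 had 3 of 5 occupied, led by ZNF556.

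With peaks at annotated ends, the other clusters lay below the share of the whole set. From ZNF101 to ZNF254 (chr19:19668153-24129968), 8 of 37 members were occupied in the APOC2 library (21.6%, 11.4 to 37.2%) and 4 in the vector library, the most of any cluster. ZNF506 led there, with 10.3. ZNF91 and ZNF93, known for silencing SVA and LINE elements, stand in this cluster and had no peak in either table. From ZNF628 to ZNF446 (chr19:55476617-58489533) the number was 11 of 60 (18.3%, 10.6 to 29.9%), led by ZNF460, and from ZNF575 to ZNF296 it was 4 of 24 (16.7%, 6.68 to 35.9%), led by ZNF222. From ZNF175 to ZNF331 (chr19:51571283-53580269) it was 6 of 41 (14.6%, 6.88 to 28.4%), with none in the vector library and ZNF28 the highest at 6.93. These 6 came from 5 peaks, since ZNF816 and ZNF816-ZNF321P shared a start and a peak. The lowest share was 1 of 16 (6.25%, 1.11 to 28.3%) from ZNF557 to ZNF846, where ZNF557 had 5.42. In the cluster from ZNF302 to ZNF792 only ZNF792, 1 of 5, was occupied. The interval of the ZNF653 to ZNF791 cluster did not overlap those of the ZNF101, ZNF557, ZNF575, ZNF175 and ZNF628 clusters. With a gap of 2 Mb this cluster was joined to the ZNF557 one, and its interval then overlapped that of the ZNF101 cluster. No test between clusters was made, since neighbouring genes are not replicates.

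Other coding genes inside the spans of these clusters had a smaller share than the members: 18 of 150 had an APOC2 peak (12%, 7.73 to 18.2%), an interval below that of the members. Outside the spans 179 of 1051 did (17.0%, 14.9 to 19.4%), and the intervals inside and outside overlapped. Within the ZNF653 to ZNF791 span there were only 4 such genes, of which 2 were occupied. By span the order varied. Other genes had the higher share in the ZNF575 to ZNF296 span (6 of 28, 21.4%, against 16.7% of members). The same held in the ZNF565 and ZNF302 spans, with only 4 and 1 other genes. Members had the higher share in the ZNF557, ZNF653, ZNF101, ZNF175 and ZNF628 spans. The ZNF557 to ZNF846 span held 53 of the 150 other genes, of which 2 were occupied. Of the 19 zinc finger genes of the chromosome with other names (ZFP, ZSCAN, ZBTB, ZIM, ZIK and PEG3), 3 were occupied in the APOC2 library. ZFP14 had fold enrichments of 5.94 with vector and 9.76 with APOC2, ZFP30 had 4.77 and 5.23, and ZSCAN22 had a peak in the APOC2 library alone, with 7.13.

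**Figure D3:**
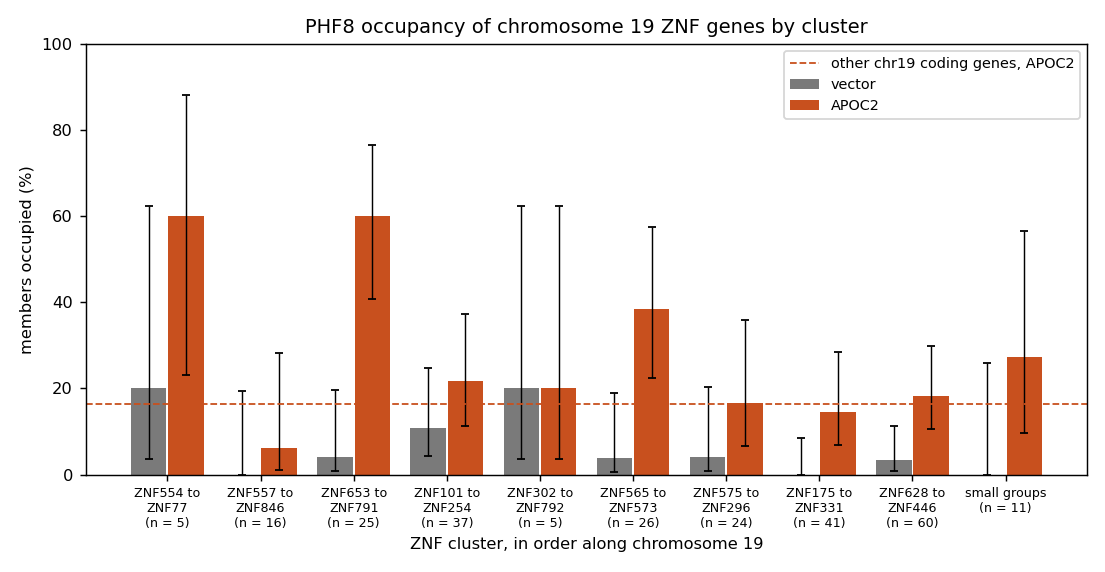
Share of members occupied (y axis, %) in each cluster along chromosome 19 (x axis, named by first and last member, n members) in the vector (grey) and APOC2 (orange) libraries, with 95% Wilson intervals; the dashed line is the 16.4% of other coding genes in the APOC2 library, and the last pair of bars holds the 11 genes in smaller groups. The ZNF653 to ZNF791 cluster stands at 60.0%, and the 3 clusters from ZNF575 onward lie between 14.6 and 18.3%.

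The peaks lay at the starts of the genes. Strand was known for 219 members, of which 55 had an APOC2 peak at the start and none had one at the end. A count of 0 allows a share of up to 1.37%. Of 966 other coding genes of the chromosome with a known strand, 160 had an APOC2 peak at the start and 16 (1.66%) had one at the end. The limit for the members lay just below this share. Whether an absence of end peaks was particular to the zinc finger genes was not tested. The 3′ ends of zinc finger genes are known to carry repressive histone methylation in many cell types, laid down with the help of ZNF274, a member of this set. ZNF274 itself had no peak in either table. Relative to the start, the peak midpoints at the 55 members had a median position of 138 bp downstream (quartiles 100 and 166 bp). At 46 members the midpoint was downstream. A peak shared by members was counted at each of them. At other genes the median was 145 bp (87.9 and 201 bp). The midpoint lay from 0 to 250 bp downstream at 78.2% of these members, against 62.5% of the other genes. The median length of the peaks at members was 296 bp in the APOC2 and 253 bp in the vector table, and their pileups ran from 11 to 53 and from 14.8 to 38.6.

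**Figure D4:**
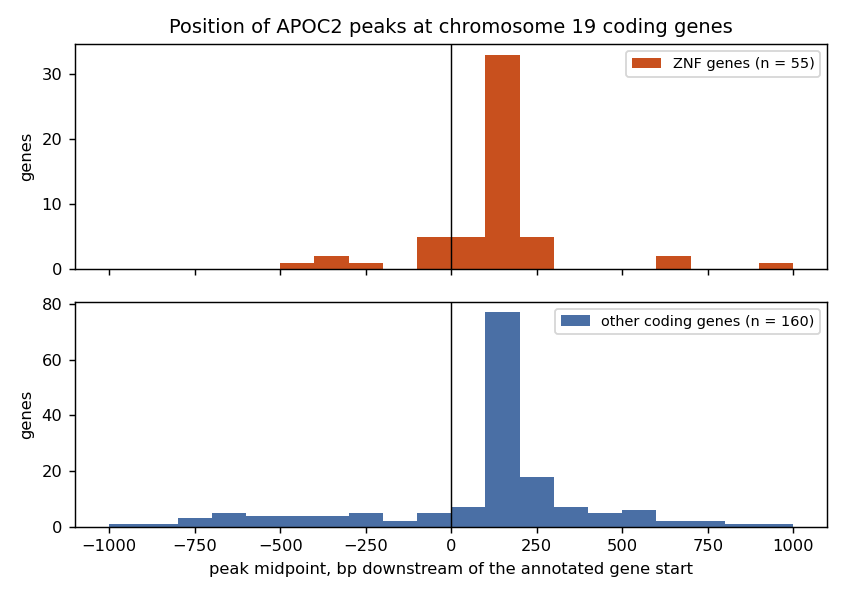
Number of genes (y axis) by position of the APOC2 peak midpoint relative to the annotated gene start (x axis, bp, positive downstream, bins of 100 bp) for 55 members (top) and 160 other chromosome 19 coding genes (bottom). Both groups peak just downstream of the start, with medians of 138 and 145 bp.

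The window decided a few members. Just inside it were ZNF850, with an APOC2 peak 942.5 bp from its boundary (fold enrichment 7.19), and ZNF473 at 780.5 bp (4.69). Just outside were ZNF701 at 1068 bp (3.72), ZNF550 at 1127 bp (6.55) and ZNF302 at 1327 bp (5.95). RefSeq lists 271 starts for the 219 members, and 12 members without a boundary peak had an APOC2 peak within 1 kb of another listed start. With these, 74 members (29.6%) had a peak in the APOC2 library and 16 (6.40%) in the vector library. The same step added 13 of the 1201 other genes, to 17.5% in the APOC2 library. The cluster from ZNF653 to ZNF791 then had 17 of 25 and that from ZNF565 to ZNF573 had 14 of 26. The cluster from ZNF302 to ZNF792 went from 1 of 5 to 3 of 5 (60.0%), with ZNF302 and ZNF599 added, and so no longer lay below the share of the whole set. Not all added peaks lay at a member alone. Those at ZNF302, ZNF599, ZNF567, ZNF420, ZNF225 and ZNF550 also lay at a boundary of a gene outside the set. For ZNF302 these genes included SCGB2B2, and for ZNF599 the gene was LOC124904696.

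Some of the strongest sites in the set lay at such inner starts. ZNF563 had fold enrichments of 10.1 with vector and 14.8 with APOC2 at chr19:12333220-12333671, which was 13944 bp from its nearest annotated end. ZNF420 had 9.34 and 13.1, ZNF329 had 6.93 and 12.3, and ZNF574 had 4.70 and 10.3. The log2 ratios of these 4 were 0.56, 0.49, 0.83 and 1.13, and with depth-scaled pileup they were 0.69, 0.62, 0.28 and 1.24. ZNF875 had 9.15 in the APOC2 library and no vector peak. The ZNF420 peak also lay at a boundary of LOC105372390. At ZNF540 the peak was the one already counted at ZNF571. Thus 3 of these genes (ZNF563, ZNF420 and ZNF329) had higher APOC2 values than ZNF460, the highest member at a boundary.

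Occupancy was set against the CpG number of the promoter, counted in the 300 bases around the first start listed for each gene. Here a gene counted as occupied when a peak midpoint lay within 1 kb of that same start, which held for 62 of 219 members (28.3%) and 162 of 966 other genes of the chromosome (16.8%) in the APOC2 library. At other genes the share rose with CpG number. It was 0 of 276 with 10 CpG or fewer (a count of 0 allows up to 1.09%), 16.0% with 11 to 21, 22.3% with 22 to 30 and 31% with 31 or more. At the members it was 6 of 24 (25%, 12 to 44.9%), 29.6% (21.5 to 39.3%), 29.3% (20.2 to 40.4%) and 22.7% (10.1 to 43.4%) in the same classes. In the lowest class the interval of the members lay above the limit for the other genes, while in the highest class the interval of the members contained the share of the other genes. The members with 10 CpG or fewer and an APOC2 peak were ZNF556, ZNF491, ZNF737, ZNF714, ZNF708 and ZNF493, with fold enrichments between 4.29 and 7.59. With the peak at either annotated end, the lowest class held 4 of 276 other genes (1.45%) and again 6 of 24 members. At ZNF genes of other chromosomes the shares were 7.41%, 28.6%, 37.9% and 43.5%, which rose with CpG number. With either annotated end, the lowest class there held 5 of 27 (18.5%), closer to the members. The median CpG number was 20 in members with an APOC2 peak at this start and 20 in those without, but 30 and 18 in other genes of the chromosome. Of the 24 members with 10 CpG or fewer, 18 stood in the ZNF101 to ZNF254 cluster, where 4 of them were occupied.

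**Figure D5:**
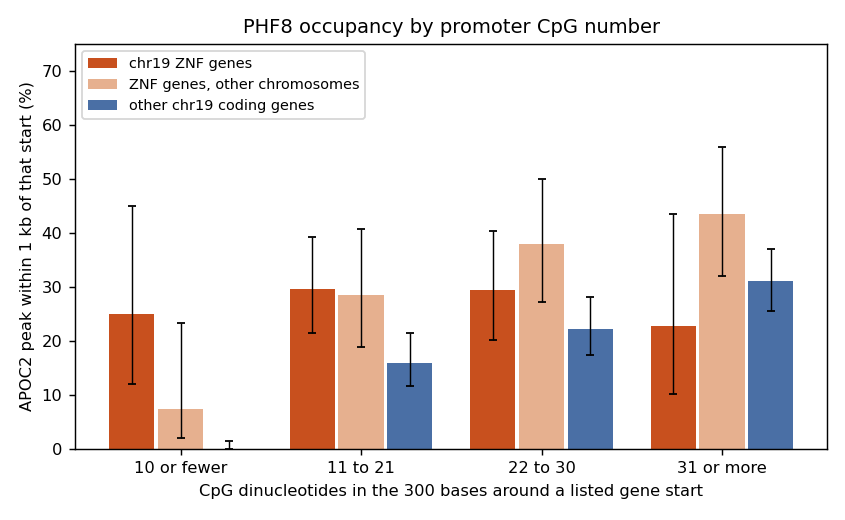
Share of genes with an APOC2 peak within 1 kb of a listed start (y axis, %) by the number of CpG dinucleotides in the 300 bases around that start (x axis), with 95% Wilson intervals, for chromosome 19 ZNF genes, ZNF genes of other chromosomes and other chromosome 19 coding genes. The members stay between 22.7 and 29.6%, whereas the other genes go from 0 to 31%.

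Short motifs were searched on both strands of the same 300 bases. CCGGAAG, the core of ETS factor sites, was found in 100 of 219 members (45.7%), against 12.8% of the other genes of the chromosome and 14.2% of all coding genes with a promoter sequence. It was in 38.7% of members with an APOC2 peak at the start and in 48.4% of those without, while at other genes it was in 25.9% and 10.2%. Of the sequences shown, those of ZNF460, ZNF222 and ZNF100 held it once each. GGGCGG, the SP factor core, which can overlap other matches, was in 67.6% of members, 65.9% of other genes and 58.5% of all coding genes. In members its share was 67.7% with a peak and 67.5% without, and in other genes 80.2% and 63.1%. In the same order (members, other genes, all coding genes), CACGTG, the E-box core, was in 4.11%, 8.80% and 8.88%. AAGATGGC, the YY1 core, was in 6.39%, 5.59% and 3.91%, and the NRF1 motif in 2.28%, 2.38% and 1.75%. ACTACAA, added after values had been seen, was in 5.02%, 2.80% and 3.14%. These matches describe the letters only.

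The partners of KRAB zinc finger proteins were read from the same tables. Of 13 genes (TRIM28, SETDB1, ATF7IP, CBX1, CBX3, CBX5, MPHOSPH8, TASOR, PPHLN1, MORC2, CHD3, CHD4 and ZNF274), 3 were occupied in the APOC2 library alone, 1 in both and 9 in neither, beside 18.0% and 5.84% of all coding genes for the first and second class. These counts lay close to what those shares give for a list of this length. TRIM28, the corepressor itself, which lies on chromosome 19 beside the last cluster, had a fold enrichment of 8.39 in the APOC2 library and no vector peak. CBX5, which encodes an HP1 protein, had 10.1 and ATF7IP, which stabilises SETDB1, had 4.29, each in the APOC2 library alone. PPHLN1, of the HUSH silencing complex, had 4.35 with vector and 4.75 with APOC2. The absence of a call in the vector table is a matter of the caller's threshold, so lower signal below that threshold cannot be told apart from none. Many members are close paralogs, and how reads that match several of them were treated is not given in the sources used here.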

How the data were processed

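PHF8 ChIP-seq libraries of RKO cells were analysed from the peak table of each, 1 per condition. Per the submitters' processing notes, Bowtie2 2.2.9, MACS2 2.0 and HOMER were used with hg38; the control library and thresholds are not given in the sources used here. Per the file headers, the deposited pileup is a signal at the summit and the deposited fold enrichment a ratio over local background; the deposited -log10 p and -log10 q columns were known by place and values. Read totals were unknown; steps in the values put the APOC2 depth at 0.824 of the vector depth if the control was the same (63.0% of APOC2 background values fell on the step), and scaled pileups use the step of 0.833.

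Gene positions, strands and promoter sequences came from RefSeq tables (GRCh38.p14). A gene was occupied when the middle of a peak fell no more than 1 kb from its annotated start or end. Shares carry 95% Wilson intervals, for counting error only. Code (Python 3.11.15, pandas 2.3.3) was checked on planted peaks. No test between conditions was possible.

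Named genes were the member occupied in the vector library alone, the 10 highest in the APOC2 library alone, the extremes among those occupied in both, the highest of each cluster, and the listed partners; members at other listed starts, ZNF91, ZNF93, ZNF473, ZNF541 and the window's edge were chosen after their values were seen. Members and lists were chosen with earlier results of these data known. Protein features had been planned and were not analysed here.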

Additional observations from a re-analysis of the deposited data

How the results depend on the processing

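With 1 library per condition, no library could be left out. No paired analysis was possible because each condition had 1 library. Of 69 recomputed values, 60 stayed within 1.5 times the reported number (for the median log2 ratio, within its SD over members, 0.40), and 9 did not; none reversed. The cause was not tested. With only peaks that cover a gene's annotated start or end, 7 (vector) and 33 (APOC2) members were occupied, 26 in the APOC2 library alone, beside 7 and 60 other genes of the chromosome. With equal numbers of top-ranked peaks, 25 members and 99 other genes were occupied in the APOC2 library, 17 members in it alone. With a fold enrichment of at least 5, 16 other genes were occupied in the vector library. The share of members stayed above that of other genes of the chromosome in both libraries under all 9 alternatives that gave both. For the vector library, taking equal numbers kept all of its 4015 peaks, so that alternative could change nothing there. The q-value limit left both vector shares unchanged as well. With equal numbers, the APOC2 shares (10.0% of members and 8.24% of other genes) are given without intervals. The median log2 ratio ran from 0.14 (deposited pileup) to 0.61 (without the added 1). The alternatives without hyphenated symbols and with any listed start were added after the data had been seen. Splitting clusters at 0.5 or 2 Mb left the highest share at 60.0%, that of the ZNF554 to ZNF77 cluster (3 of 5). At 0.5 Mb the ZNF653 to ZNF791 cluster kept 15 of 25. At 2 Mb it was joined to the cluster from ZNF557, and 16 of 41 were occupied in the APOC2 library (39.0%, 25.7 to 54.3%). That interval overlapped the one of the ZNF101 to ZNF254 cluster (11.4 to 37.2%).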
